A study of Mus musculus with 12 samples.

Results

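The subject here is the set of protein-coding genes whose genomic span, from the first to the last base of the gene, was at least 250 kb. Genes that the table assigns to a transcription factor family were left out. Of 11669 genes in the table, 233 met this rule, and 120 of them were expressed highly enough to be tested. The libraries were made from TAMC, the name given under the cell line tag, which is not spelled out in the labels. Each of 4 groups held 3 libraries taken after 24 h: PBS (buffered saline), the particle NP@M, NP-D@M, which carries D, and NP-D@MP, which carries D and P. The letters are not explained in the labels. The series title speaks of a nanodrug with a cancer cell membrane that targets cyclin-dependent kinases (CDKs). Whether a group's libraries are separate cultures or animals is not given, so p-values measure the spread between these libraries, which may be technical.

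Most of the length of such a gene is intron, which is removed by splicing, so a gene of very large span can have a mature transcript of ordinary length. RNA polymerase II needs far longer to cross it than to cross a compact gene, and elongation factors, topoisomerases and the U1 particle, which masks early polyadenylation sites, help the polymerase reach the end. Genes of this size are known for adhesion molecules, signalling scaffolds, regulators of small GTPases and common fragile sites, which break under replication stress. To set span apart from transcript length, the genes were compared with protein-coding genes that also belong to no transcription factor family, had a span under 20 kb and a similar gene length. Gene length is the length in the deposited table, which is what remains after introns are taken out.

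The promoters below belong to the genes of the set with the largest decreases and increases with D that had a RefSeq promoter starting within 100 bases of the gene's 5′ end. They are shown because they let a reader compare start regions of genes that moved in opposite ways. Each is the 150 bases before the RefSeq start on GRCm38.p6, read 5′ to 3′ along the gene, with every CG in capitals.
Akap13 (chr7:75455384-75455533, plus strand): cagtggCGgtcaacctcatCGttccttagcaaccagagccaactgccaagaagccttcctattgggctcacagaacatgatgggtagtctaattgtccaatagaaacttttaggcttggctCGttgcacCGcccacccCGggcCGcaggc
Dip2c (chr13:9276375-9276524, plus strand): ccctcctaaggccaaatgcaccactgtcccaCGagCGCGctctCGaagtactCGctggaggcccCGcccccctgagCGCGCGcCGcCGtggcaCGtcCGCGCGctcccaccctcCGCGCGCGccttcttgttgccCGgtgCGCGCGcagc
Fmnl2 (chr2:52857718-52857867, plus strand): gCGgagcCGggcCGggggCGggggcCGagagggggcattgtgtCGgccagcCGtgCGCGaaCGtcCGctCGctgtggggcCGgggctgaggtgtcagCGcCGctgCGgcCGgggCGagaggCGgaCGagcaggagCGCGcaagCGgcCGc
Slc39a11 (chr11:113650093-113650242, minus strand): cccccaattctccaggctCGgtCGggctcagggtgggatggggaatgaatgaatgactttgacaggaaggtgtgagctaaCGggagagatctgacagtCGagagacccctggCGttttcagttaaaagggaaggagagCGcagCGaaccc
Chchd3 (chr6:33060261-33060410, minus strand): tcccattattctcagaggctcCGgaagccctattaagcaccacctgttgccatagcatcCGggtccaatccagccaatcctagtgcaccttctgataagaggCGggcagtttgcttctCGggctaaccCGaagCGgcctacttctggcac
Adk (chr14:21052424-21052573, plus strand): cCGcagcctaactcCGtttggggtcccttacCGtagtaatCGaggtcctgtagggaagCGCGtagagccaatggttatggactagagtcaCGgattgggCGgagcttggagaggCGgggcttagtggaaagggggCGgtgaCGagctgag
Akap13, Dip2c and Fmnl2 were lower with D and held 6, 23 and 24 CG pairs. Slc39a11, Chchd3 and Adk were higher with D and held 7, 6 and 11.

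The last 8 bases of the Fmnl2 window lie inside the gene as the table gives it. A promoter entry existed for 183 of the 233 genes, and for 116 it began within 100 bases of the table's 5′ end. In the 250 bases before the start, these 116 had a median of 17 CG pairs, against 6 over all 32851 promoters of the RefSeq table. The GC box, searched as GGGCGG or CCGCCC, which are the same motif on the 2 strands, was present in 59.5% of them and in 32.7% of all promoters. TATAAA, searched in the gene's direction in the last 40 bases before the start, was present in 0.862% (1 gene) and in 2.31% of all. Genes that fell with D had a median of 16.5 CG pairs (34 promoters) and genes that rose had 15 (15 promoters). The 116 are protein-coding genes of the deposited table, while the 32851 are all RefSeq entries. No values are given for the short-span comparators, so these differences cannot be read as a trait of long span. These matches describe the letters and are no evidence of a bound factor.

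The reads that could be recovered from the deposited FPKM values (fragments per kilobase of gene length, scaled to library size) came to 14.44 M to 17.34 M per library. The FPKM values had been scaled with library sizes that were 2.19 to 2.36 times these reads without D and 0.468 to 0.553 times with D. Deposited values with D are therefore higher, for the same share of reads, than those without D. Results are given on the deposited scale and, where it matters, also scaled to each library's total of recovered reads ("read totals"), which on log2(FPKM + 1) moves the median of all 8615 tested genes from 0.16 to -1.47 under NP-D@M against NP@M. These are bulk libraries, so fewer cells of a type and less RNA per cell cannot be told apart. The table holds only some genes, by a choice that the labels do not explain. It has 258 of the 737 protein-coding genes of at least 250 kb in GENCODE M21 (35%), transcription factors included, and 10166 of 21951 protein-coding genes of any span (46.3%).

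Of 14 myeloid markers 12 were in the table, and all 12 were tested, none of them at 0 in any group. Their summed level was 3405 to 5209 FPKM without D and 33300 to 43285 FPKM with D. Most of it was Lyz2, with 1812 to 3138 FPKM without D and 23236 to 33149 with D. In NP-D@M against NP@M 8 of the 12 markers rose and 3 fell, and with read totals 3 rose and 7 fell. All 4 megakaryocyte and platelet markers in the table, of 5 listed, rose in NP-D@M against NP@M, with a summed level of 484 to 1211 FPKM without D and 20396 to 28667 FPKM with D. Most of the sum with D was Pf4, which read 229 to 970 FPKM without D and 17660 to 24699 with D. With read totals 2 of the 4 rose and 1 fell. No marker of neurons, retina or erythroid cells was in the table, although the extraction protocol speaks of retinas and the tissue is labelled marrow. The 2 T and NK cell markers in the table, of 8, summed to 0.139 to 0.447 FPKM without D and 2.09 to 3.76 FPKM with D, and Cd4 rose on both scales (1.73 and 0.80). The 2 epithelial and colon carcinoma markers, of 7, summed to 7.06 to 9.2 FPKM without D and 18.8 to 33.9 FPKM with D. Their Cdh1 rose as deposited (1.71) and had -0.31 with read totals. Both tested endothelial markers rose as deposited, and with read totals 0 rose and 1 fell. Of 5 mast cell and basophil markers 3 were in the table, and they differed. Gata2 fell on both scales (-2.89 and -4.13). Cpa3 was not called as deposited (0.48) and fell with read totals (-1.16). Mcpt8 was too low to be tested and reached at most 0.21 FPKM without D and 0.984 FPKM with D. Both fibroblast markers in the table were too low to be tested. Of 5 B cell markers, the 1 B cell marker in the table reached at most 0.144 FPKM and was at 0 under NP-D@MP. The marker genes named here were picked after their values were seen. The part of cell make-up in the results below was not tested.

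Within the groups without D, PBS replicate 3 and NP@M replicate 2 differed from the other libraries of their groups in how the long-span genes read. In each, 18 of the 233 genes had 0 reads, while their mates had 7 to 10. At the same time 129 and 123 genes reached 1 FPKM, against 87 to 97. Results that rest on these libraries are given with and without them.

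Long-span genes took a smaller share of the reads in every library with D. Their share was 0.743%, 0.905% and 1.57% under PBS, 0.788%, 1.58% and 0.868% under NP@M, 0.171%, 0.185% and 0.195% under NP-D@M, and 0.186%, 0.168% and 0.16% under NP-D@MP (each by replicate 1, 2 and 3). Groups with and without D did not overlap: the lowest share without D was 3.81 times the highest with D. The mean was 1.07% ± 0.436 (SD, n = 3) in PBS, 1.08% ± 0.435 under NP@M, 0.184% ± 0.0122 under NP-D@M and 0.171% ± 0.0133 under NP-D@MP. Without the 2 libraries that stood apart, the means of PBS and NP@M were 0.824% and 0.828% (2 libraries each).

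The short-span comparators, 1026 tested genes with a gene length of 3819 to 16819 bases, took 13.3% to 13.7% of the reads without D and 11.3% to 12.4% with D. The libraries with D were lower here too, by less. The levels of the 2 sets were not matched in these shares, and the comparators are tested genes only, unlike the 233. Shares also weigh toward the highest genes. The highest comparator mean was 682 FPKM under NP@M and 10580 under NP-D@M, while the median of the means went from 3.82 to 2.16. Over the 233 genes the highest mean went from 22.7 to 71.5 and the median from 0.82 to 0.294. The shares therefore do not set span apart. The genes that held most of the long-span reads also differed. Slc7a11, the cystine and glutamate exchanger, led them without D with 5.88% of the set's reads in PBS and 6.8% under NP@M, followed by the nuclear envelope linker Syne1 with 4.16% and 4.01%. With D, Plxdc2, a membrane protein with a plexin domain, led with 14.1% under NP-D@M and 13.8% under NP-D@MP, followed by the adhesion molecule Cadm1 with 9.25% and 11.2%.

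**Figure D1:**
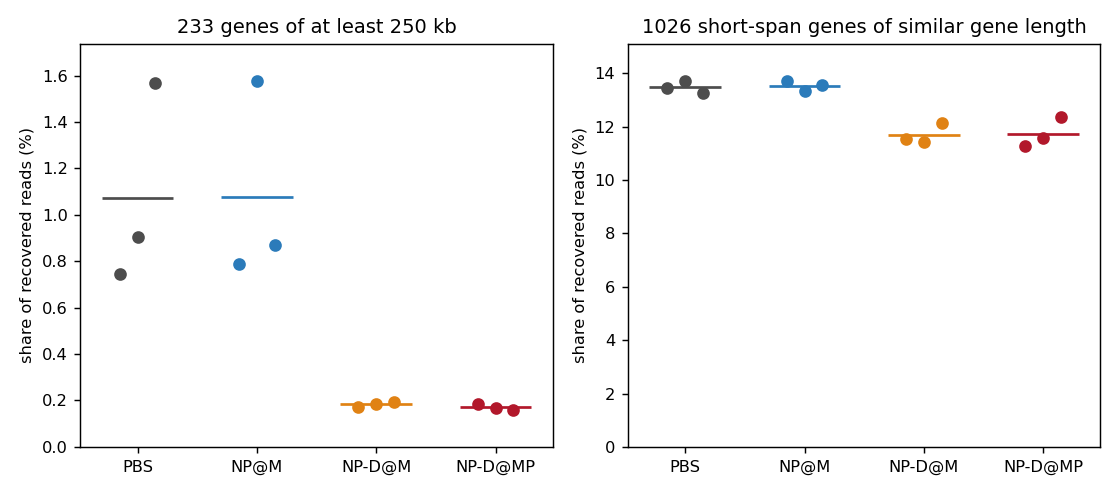
Share of recovered reads in percent (vertical axes, from 0, on different scales) per library in the 4 groups, for all 233 long-span genes (left) and for the 1026 short-span comparators (right), whose levels were not matched. Points are libraries and bars are group means. The comparators are tested genes only, and shares weigh toward the highest genes. The 6 libraries with D lie at 0.16% to 0.195% on the left and at 11.3% to 12.4% on the right, and in the left panel PBS replicate 3 and NP@M replicate 2 lie at 1.57% and 1.58%, above their group mates.

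In NP-D@M against NP@M, which differ by D, 71 of the 120 tested long-span genes fell and 35 rose, and 14 passed no threshold (limma on log2(FPKM + 1), Benjamini-Hochberg adjusted p under 0.05). Over all tested genes 46% were lower and 45.2% higher. The groups did not overlap for any of the 71 or the 35, and over all genes called in this comparison they did not overlap for 98.7%. The median log2 fold change was -0.84 over the long-span genes and -0.64 over the comparators, of which 553 fell and 395 rose. NP-D@MP against PBS, which shares no library with the first comparison, gave 74 lower and 30 higher, beside 45.8% and 45.7% of all tested genes, and a median of -0.88.

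The same genes moved in both comparisons. The fold changes had the same sign for 120 of 120 long-span genes and for 8520 of all 8615. Of the 100 called in both, 71 were lower in both, 29 higher in both and 0 opposite. The Pearson correlation of the fold changes was 0.988 over the 120 genes and 0.985 over all tested genes. It is a correlation across genes, which are not independent replicates, and is given with no p.

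Scaled to read totals, the losses widened and most of the rises were gone. In NP-D@M against NP@M 94 long-span genes were then lower and 6 higher, beside 61.7% and 9.12% of all tested genes. In NP-D@MP against PBS 95 were lower and 5 higher, beside 62.4% and 9.01%. All 71 genes that fell on the deposited scale fell on this scale too. Their direction was fixed in advance, since the rescaling lowers values with D and raises those without D for every gene. Of the 35 that rose, 6 were higher, 12 lower and 17 not called. The 6 were Cpq, Cadm1, Slc39a11, Nrcam, Dner and Col23a1. The last 2 lie outside the rule for named genes and were named after their values were seen.

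**Figure D2:**
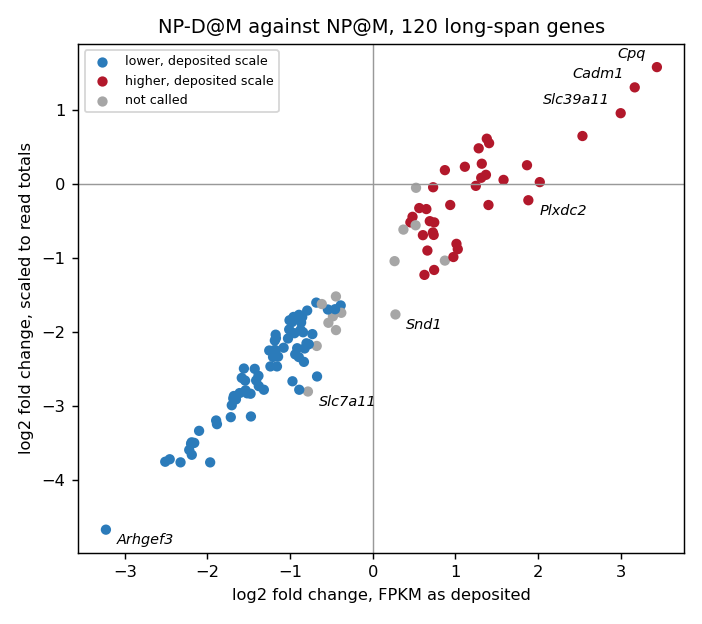
Log2 fold change of NP-D@M against NP@M for the 120 tested long-span genes on the deposited scale (horizontal axis) and scaled to read totals (vertical axis). Each point is a gene, coloured by its call on the deposited scale. All 71 genes lower on the deposited scale lie below 0 on both axes, which the rescaling fixes in advance. The 35 higher genes lie between clearly above 0 (Cpq, 1.58) and below 0 on the vertical axis.

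The filter shaped who could be tested. Of the 120 tested genes, 38 reached 1 FPKM in 3 libraries both without and with D, 60 did so without D only, 20 with D only, and 2 only over both. Among the genes named below, Wwox, Ptprm, Smyd3 and Nrcam passed with D only. March1, Exoc4, Syne1, Pde4b, Arhgap6 and Prkce were among those that passed without D only. The filter favours a difference in a gene that passed through 1 side only, so the counts above describe the tested genes and not all 233. With no filter, 117 of 233 fell and 42 rose in NP-D@M against NP@M, beside 46% and 37.2% of all 11669 genes. Of the 113 genes not tested, 46 had a mean under 0.1 FPKM and none had 0 reads in every library.

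The largest decrease on the log2(FPKM + 1) scale was that of Arhgef3, a guanine nucleotide exchange factor (chr14:27114899-27403911 in the table's coordinates, 11 exons in its principal transcript). It read 11.1, 12.9 and 17.4 FPKM under PBS, 11, 17.7 and 13.4 under NP@M, 0.92, 0.507 and 0.349 under NP-D@M, and 0.0758, 0.596 and 0.393 under NP-D@MP. Every library with D lay below every library without D, and the group means differed 23.7-fold between NP@M and NP-D@M (log2 fold change -3.23 ± 0.239 SE, adjusted p = 4.9e-07). Fmnl2, a formin that elongates actin filaments, read 5.92, 7.6 and 13.5 FPKM under PBS, 5.9, 11.3 and 6.09 under NP@M, 0.698, 0.679 and 0.68 under NP-D@M, and 0.873, 0.566 and 0.857 under NP-D@MP. The groups with and without D did not overlap, and its log2 fold change was -2.33 (adjusted p = 1.78e-05). The exchange factor Tiam1 (-1.54) and the GTPase-activating Arhgap6 (-1.17) also fell. Akap13, an anchor for protein kinase A, read 4.17, 10.4 and 5.06 FPKM under NP@M and 0.205, 0.232 and 0.302 under NP-D@M, a 26.6-fold difference in means (log2 fold change -2.51, adjusted p = 2.54e-05).

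Of the list of regulators of Arf, Rap, Ras and Ral GTPases, 11 were in the set, and all 4 that were tested fell. Such counts, here and for the lists below, stand beside 59.2% lower and 29.2% higher over the 120 tested long-span genes. Over all tested genes these shares were 46% and 45.2%. Of the 120, 60 passed the filter without D only, so falls are partly built into the counts. The list also held Tbc1d5, which acts on Rab GTPases. Asap1, which switches off Arf GTPases at focal adhesions, read 5.2, 6.63 and 10.5 FPKM under PBS, 5.72, 6.79 and 6.18 under NP@M, 0.789, 0.477 and 0.407 under NP-D@M, and 0.673, 0.295 and 0.374 under NP-D@MP. Iqsec1, an Arf exchange factor, started higher and kept more of its level: its means were 13.7 ± 1.99 FPKM under NP@M and 2.74 ± 0.276 under NP-D@M (SD, n = 3), and its log2 fold change was -1.97. Agap1 fell by 1.24 and Tbc1d5 by 0.94 on the log2 scale.

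Protein kinases and their subunits fell as well, with all 4 tested of 9 in the set, beside 59.2% of all tested long-span genes. Prkce passed the filter through libraries without D only. Igf1r, the receptor for insulin-like growth factor 1, read 4.17, 8.75 and 4.65 FPKM under NP@M and 0.434, 0.281 and 0.651 under NP-D@M (log2 fold change -2.18, adjusted p = 2.52e-05). Rptor, the subunit that brings substrates to the mTOR kinase, fell by 1.38, and the protein kinase C genes Prkce and Prkcb by 1.01 and 0.83. Prkcb was close to the threshold (adjusted p = 0.0408). Its 2 highest values, 7.68 and 7.33 FPKM, came from PBS replicate 3 and NP@M replicate 2, beside 2.6 to 3.52 in their mates and 1.35 to 2.1 with D. The call was lost without NP@M replicate 2 (-0.46, adjusted p = 0.178), and also without any 1 library with D (adjusted p = 0.0519 to 0.12). Of genes for cyclic nucleotide breakdown and G protein signalling, 4 of 11 were tested and 3 fell: the phosphodiesterases Pde4b (-1.69) and Pde7b (-0.96) and the G protein subunit Gnaq (-1.47). The calcium channel Itpr2 had a log2 fold change of -0.68 and an adjusted p of 0.103.

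All 6 tested linkers and motors of the cytoskeleton, of 12 in the set, fell, beside 59.2% of all tested long-span genes. Palld, which bundles actin, had means of 5.01 FPKM under NP@M and 0.826 under NP-D@M, and its log2 fold change was -1.72 (adjusted p = 3.83e-06). Syne1, which ties the nucleus to the cytoskeleton and has 146 exons, read 2.21, 3.21 and 9.38 FPKM under PBS, 1.79, 9.47 and 2.56 under NP@M, 0.269, 0.671 and 0.571 under NP-D@M, and 0.52, 0.558 and 0.449 under NP-D@MP. The spread among libraries without D was wider than for Palld, and the fall of 1.65 had an adjusted p of 0.00767. Enzymes that build sugar chains fell in 4 of 4 tested, among them Mgat5, which branches N-glycans (-2.10), the xylosyltransferase Xylt1 (-0.91), and Ext1, a heparan sulfate polymerase (-0.46).

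Ubiquitin genes were split. March1, a membrane ligase that removes MHC class II molecules from the surface of antigen-presenting cells, read 3.47, 4.97 and 8.76 FPKM under PBS, 4.22, 9.29 and 4.51 under NP@M, 0.259, 0.5 and 0.757 under NP-D@M, and 1.01, 0.635 and 0.213 under NP-D@MP. Btbd9 (-2.19) and Fbxl17 (-1.16), adaptors of cullin ligases, fell too, while the conjugating enzyme Ube2e2 rose by 1.32. Of the genes for vesicle traffic, 7 of 12 were tested, 5 fell and 1 rose. Exoc4, a subunit of the exocyst, fell by 1.15, the SNARE Vti1a by 0.54 and Tbc1d22a by 0.67. Trappc9, a subunit of a Golgi tethering complex, rose by 1.01 on the deposited scale and was lower by 0.81 with read totals, called both times.

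Among RNA-binding, chromatin and cofactor proteins 8 of 12 were tested, 4 fell and 1 rose. The histone deacetylase Hdac4 fell by 1.58, the repressor Atxn1 by 1.18, the Notch coactivator Maml2 by 1.17 and the chromatin reader Phf21a by 0.84. Protein and lipid phosphatases gave 1 of each: Ppm1h fell by 1.48 and the receptor phosphatase Ptprm rose by 0.73. Genes at common fragile sites were likewise divided. Of 11 in the set 4 were tested, 2 fell, Exoc4 among them, and Wwox, an oxidoreductase at a classic fragile site, rose by 0.56. It read 0.265 to 0.562 FPKM under NP@M and 1.03 to 1.18 under NP-D@M. Wwox and Ptprm passed the filter through libraries with D only, and Exoc4 through libraries without D only. Mad1l1, a checkpoint protein, had -0.48 and an adjusted p of 0.103, and -0.77 and 0.0107 without NP@M replicate 2. With read totals Wwox had -0.33 and an adjusted p of 0.0667.

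**Figure D3:**
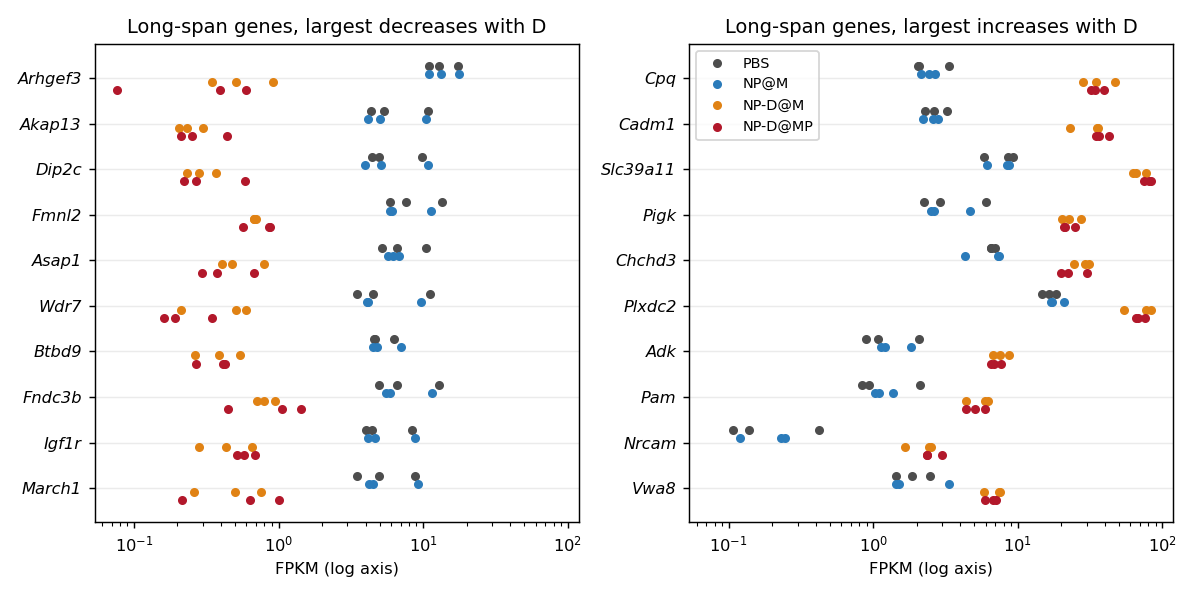
FPKM on a log axis for the 10 long-span genes with the largest decreases (left) and the 10 with the largest increases (right) in NP-D@M against NP@M. Each point is a library, coloured by group. Genes were picked among those called with no overlap between NP-D@M and NP@M, so the order of these groups was fixed by the choice. In the left panel every library without D lies above every library with D of the same gene (Arhgef3, 11 to 17.7 against 0.0758 to 0.92), and the right panel shows the opposite order (Cpq, 2.04 to 3.33 against 28.1 to 47).

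Metabolic genes and surface genes were the role lists with more increases than decreases on the deposited scale, and held 12 of the 35 increases. With read totals both had more decreases, 9 to 1 and 5 to 2. Of 15 metabolic and mitochondrial genes 12 were tested, 7 rose and 4 fell. Cpq, a secreted carboxypeptidase (chr15:33083129-33594552, 8 exons), read 2.04, 2.07 and 3.33 FPKM under PBS, 2.42, 2.66 and 2.14 under NP@M, 28.1, 47 and 34.9 under NP-D@M, and 39.7, 31.9 and 34.4 under NP-D@MP. Its means differed 15.3-fold on the deposited scale and 3.36-fold as shares of reads (log2 fold change 3.44 ± 0.215 SE, adjusted p = 1.68e-07). Adk, the kinase that clears adenosine, read 1.13, 1.82 and 1.2 FPKM under NP@M and 6.73, 8.75 and 7.51 under NP-D@M, a rise of 1.87. With read totals the same gene had 0.25 and an adjusted p of 0.327. Sgms1, which makes sphingomyelin (-1.61), and Gphn, which takes part in molybdenum cofactor synthesis (-1.43), fell.

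Of 25 genes for adhesion, surface receptors and channels 10 were tested, 5 rose and 3 fell. Cadm1, an adhesion molecule of the immunoglobulin family, read 2.29, 2.62 and 3.23 FPKM under PBS, 2.81, 2.21 and 2.59 under NP@M, 23, 35.7 and 35.5 under NP-D@M, and 34.6, 36.7 and 42.6 under NP-D@MP. Slc39a11, a zinc transporter, read 9.32, 8.5 and 5.85 FPKM under PBS, 8.66, 6.11 and 8.37 under NP@M, 62.6, 77.2 and 65.5 under NP-D@M, and 80.5, 74.2 and 84.2 under NP-D@MP. Both were higher in each library with D than in any without, and both remained higher with read totals (1.30 and 0.95, adjusted p = 3.87e-05 and 0.00165). Plxdc2 had the highest mean over all libraries, 44.1 FPKM, with 71.5 ± 15.2 FPKM under NP-D@M against 18.4 ± 2.19 under NP@M (SD, n = 3), but -0.22 with read totals (adjusted p = 0.288). Nrcam, a neural adhesion molecule that was not in that list and read 0.107 to 0.421 FPKM without D, went from a mean of 0.198 FPKM under NP@M to 2.2 under NP-D@M and stayed called with read totals (0.55, adjusted p = 0.0176).

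The increases of Pigk, a subunit of the GPI transamidase (2.54), Chchd3, an organiser of mitochondrial cristae (2.02), Pam, a peptide-amidating enzyme (1.58), and Vwa8, a mitochondrial ATPase (1.40), were called on the deposited scale only. With read totals they had 0.65, 0.02, 0.05 and -0.28. Snd1, a staphylococcal nuclease domain protein, was nearly flat on the deposited scale (0.28, adjusted p = 0.14) and lower with read totals (-1.76). Slc7a11 had -0.78 and an adjusted p of 0.074, with 14.4, 39.7 and 13.9 FPKM under NP@M and 11.2, 10.9 and 11.6 under NP-D@M. NP@M replicate 2 alone held the high value there. Without NP@M replicate 1 or 3 the gene was called lower (adjusted p = 0.0448 and 0.0404), and likewise without PBS replicate 3 (0.0442), which enters the shared estimate of spread. Without that PBS library Celf2 and Itpr2 were also called lower (adjusted p = 0.0386 and 0.042).

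Genes that rose and genes that fell had similar spans but different transcripts. The median span was 328 kb over the 71 that fell and 333 kb over the 35 that rose. Their median gene lengths were 10.2 kb and 6.95 kb, their median exon numbers 19 and 14, and their median first introns 53.5 kb and 27.6 kb. Over the 120 tested genes the Spearman correlation of the fold change was 0.06 with span, -0.33 with gene length, -0.21 with the first intron and -0.23 with exon number. The genes share libraries and these features overlap, so the values are descriptions with no p. Genes that fell started from a median of 2.69 FPKM without D, and genes that rose from 0.946. The filter shaped this difference, since a gene that rose could be tested through the libraries with D alone. It therefore does not describe a trait of the genes.

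The longest tested genes moved in both directions. Of the 24 tested genes of at least 500 kb 13 fell and 8 rose. Celf2, a splicing regulator of 970 kb and the longest tested, had -0.54 and an adjusted p of 0.1. Wwox (913 kb) rose, March1 (854 kb) and Exoc4 (725 kb) fell, and the formin Diaph2 (716 kb) fell by 1.38. Ptprm (688 kb) rose, the mitochondrial tRNA synthetase Fars2 (609 kb) fell by 0.95, and the focal adhesion protein Lpp (599 kb) fell by 1.32. Lpp was not called without NP@M replicate 2 (-0.75, adjusted p = 0.149) or without any 1 library of NP-D@M (adjusted p = 0.0506 to 0.0839). The scaffold Frmd4a (596 kb) fell by 1.01 and the methyltransferase Smyd3 (566 kb) rose by 0.46. Of these, Wwox, Ptprm and Smyd3 passed the filter with D only, and March1, Exoc4, Diaph2, Fars2 and Frmd4a without D only. All 6 genes over 1000 kb, of which Lsamp was the longest at 2197 kb (named for that), were too low to be tested. At the threshold of the rule, Camk2d (250024 bases) and Dnah8 (250910) lay just inside, with means of 0.885 and 0.0505 FPKM under NP@M and 0.511 and 0 under NP-D@M. Rgl1 (249591) and Lmntd1 (249185) lay just outside, with 16.6 and 0 FPKM under NP@M and 10.3 and 0.0494 under NP-D@M.

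Over all gene lengths together, transcript length followed the response to D more closely than span did. Over 7352 tested protein-coding genes outside transcription factor families, the Spearman correlation of the log2 fold change in NP-D@M against NP@M was -0.26 with span and -0.36 with gene length. Span and gene length were themselves correlated (0.66). Given gene length, the partial correlation with span was -0.03. Given span, that with gene length was -0.26. Without regard to gene length, the median log2 fold change went from 0.79 under 20 kb to -0.68 at 20 to 50 kb, -0.96 at 50 to 100 kb, -1.01 at 100 to 250 kb and -0.84 at 250 kb or more. Within a gene length of 4 to 8 kb it went from -0.64 under 20 kb to -0.77 in the 41 long-span genes, passing through -1.02 at 50 to 100 kb. Over 8 kb it went from -0.64 in 57 short-span genes to -0.95 in 66 long-span genes, and was lowest, -1.22, at 100 to 250 kb. Among genes under 20 kb of span, the median thus did not differ between gene lengths of 4 to 8 kb and over 8 kb. Without PBS replicate 3 and NP@M replicate 2 the order at 4 to 8 kb turned, with -0.68 under 20 kb and -0.50 in 38 long-span genes. Over 8 kb it stayed, with -0.65 and -0.79. With quantile normalization of all libraries the values were -0.31 and -0.07 at 4 to 8 kb, and -0.21 and -0.35 over 8 kb. The correlations above include both libraries. Under 4 kb the set had 13 tested genes, too few to read.

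**Figure D4:**
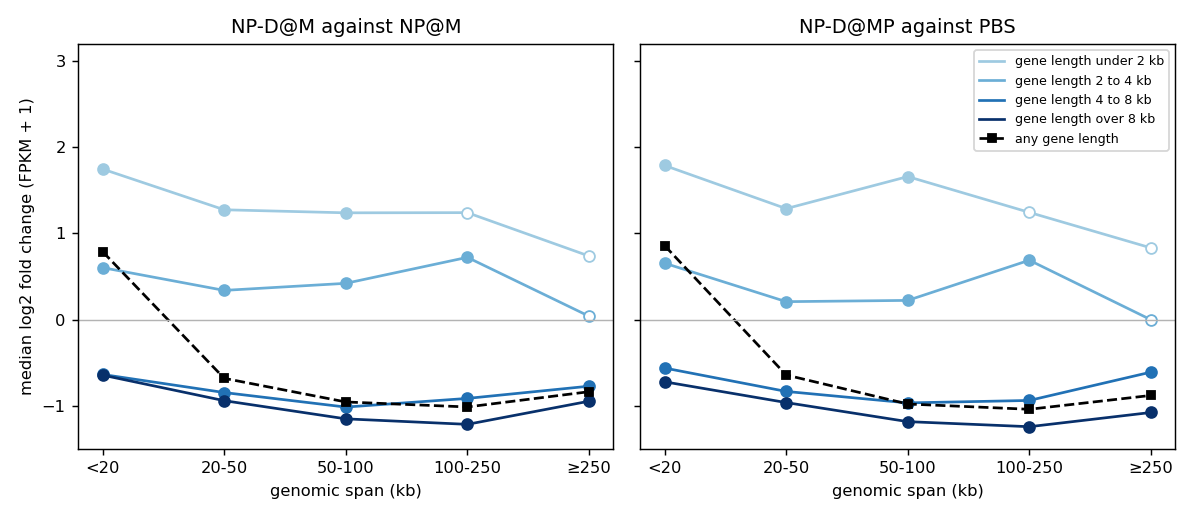
Median log2 fold change (vertical axis) in 5 classes of genomic span (horizontal axis, kb), for NP-D@M against NP@M (left) and NP-D@MP against PBS (right). Each solid line is a class of gene length, the dashed line is all lengths together, and open points have fewer than 20 genes. PBS replicate 3 and NP@M replicate 2 are included. In the left panel, medians under 20 kb of span were 1.75 for gene lengths under 2 kb and 0.60 at 2 to 4 kb. The lines of 4 to 8 kb and over 8 kb started together at -0.64. Over 8 kb the line was lowest, -1.22, at 100 to 250 kb of span.

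Set directly against the comparators, the long-span genes had a median fold change lower by 0.19 under NP-D@M against NP@M, with -0.24, -0.16 and -0.23 for the 3 NP-D@M libraries (SD 0.0465, n = 3). In NP-D@MP against PBS the difference was -0.30 (-0.31, -0.31 and -0.34 by library, SD 0.0188). Both turned positive with no filter, for members and comparators alike (0.0757 and 0.0328, 233 and 1307 genes), and with quantile normalization (0.0743 and 0.0210). With comparators under 10 kb they were -0.0175 and -0.12. They also rested on the libraries that stood apart. Without NP@M replicate 2 the first was -0.01, and without NP@M replicate 1 or 3 it was -0.35 or -0.29. Without PBS replicate 3 the second was -0.02, without PBS replicate 1 it was -0.46, and with both libraries left out the values were -0.03 and -0.04. The level in single libraries shows the same. The median log2(FPKM + 1) of the long-span genes minus that of the comparators was -0.87, -0.73 and 0.02 under PBS, -0.83, -0.07 and -0.66 under NP@M, -0.73, -0.73 and -0.70 under NP-D@M, and -0.84, -0.83 and -0.98 under NP-D@MP. Apart from PBS replicate 3 and NP@M replicate 2, libraries with and without D overlapped in this measure. The comparators had a median gene length of 4.91 kb and the tested long-span genes 8.93 kb, so the match covers the range of lengths but not their distribution.

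Inside the groups without D, libraries differed from their mates along both span and gene length. For PBS replicate 3, a gene's difference from the mates had a Spearman correlation of 0.56 with span and 0.52 with gene length. For NP@M replicate 2 these were 0.55 and 0.57. The comparators had a shorter median gene length (4.91 kb, against 8.93 kb), so the counts below do not separate span from gene length. In PBS replicate 3, 100 of the 120 tested long-span genes were above both group mates, against 36.5% of the comparators and 44.7% of all tested genes. In NP@M replicate 2 it was 95 genes, against 37.1% and 42.5%, and 88 genes were above their mates in both libraries. The summed FPKM of the 233 genes was 1.76 and 1.64 times the mean of the mates. Among all 12 libraries, no other had more than 55 of the 120 above both mates. The largest gains shared by both libraries were those of Macf1, a linker of microtubules and actin, Lpp, Syne1 and Vps13b, a lipid transfer protein, Macf1 and Vps13b being picked after their values were seen. Macf1 read 1.91, 2.98 and 12.3 FPKM under PBS and 2.19, 10.1 and 2.53 under NP@M, and 0.477 to 0.594 in all libraries with D. Lpp read 2.09, 3.22 and 11.7 FPKM under PBS and 2.44, 10.8 and 2.75 under NP@M, and 0.686 to 1.5 with D.

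Among genes of like transcript length over 4 kb, the medians of both libraries were higher at larger span up to the class of 100 to 250 kb, and did not keep rising beyond it in each case. Among genes of 4 to 8 kb gene length, the median log2 difference of PBS replicate 3 from its mates was -0.19 under 20 kb of span, 0.23 at 20 to 50 kb, 0.44 at 50 to 100 kb, 0.45 at 100 to 250 kb and 0.50 at 250 kb or more. In NP@M replicate 2 the same medians were -0.12, 0.16, 0.31, 0.36 and 0.36. Over 8 kb they went from 0.13 to 0.78 at 100 to 250 kb and 0.61 in the 66 long-span genes of PBS replicate 3, and from 0.08 to 0.65 and 0.56 in NP@M replicate 2. In genes of 2 to 4 kb they went from -0.44 to 0.16 at 100 to 250 kb and 0.11 in 10 long-span genes, and from -0.33 to 0.01 and -0.23. Under 2 kb NP@M replicate 2 was below its mates in every class (-0.68 under 20 kb, -0.38 in 3 long-span genes). Given gene length, the partial Spearman correlation with span was 0.33 and 0.29 across the 7352 genes, where the response to D gave -0.03. Given span, that with gene length was 0.25 and 0.33. In the 6 libraries with D, the medians of genes of 4 to 8 kb at 250 kb or more lay between -0.06 and 0.02. Both libraries also had more genes at 0 than their mates, 9.31% and 9.11% of the table against 2.65% to 2.96%. What sets these libraries apart was not tested.

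**Figure D5:**
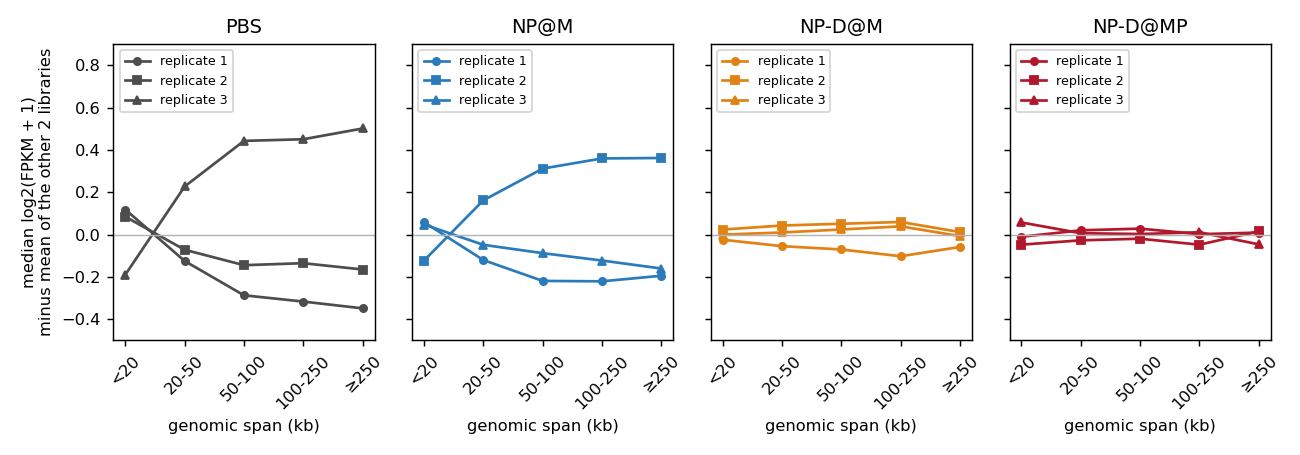
Median log2(FPKM + 1) of a library minus the mean of its 2 group mates (vertical axis), in 5 classes of genomic span (horizontal axis, kb), for genes with a gene length of 4 to 8 kb. Each line is a library and each panel a group. PBS replicate 3 and NP@M replicate 2 rise from -0.19 and -0.12 to 0.50 and 0.36, while the 6 libraries with D stay close to 0.

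No long-span gene passed the threshold in the comparison of the particle without D with PBS, or of the particles with and without P. In NP@M against PBS 0 of 120 passed limma's test, beside 0.0116% of all tested genes (1 gene), and 0 had an unadjusted p under 0.05, against 27 of all. In NP-D@MP against NP-D@M 0 passed, beside 0% of all tested genes, and 2 had an unadjusted p under 0.05, against 428 of all. Ptprm was among these 2, with a log2 fold change of -0.36 and an adjusted p of 0.941. Voom on recovered reads called 0 in either comparison. The groups did not overlap for 2 (1.67%) and 13 (10.8%) of the 120 genes, against 2.88% and 14.7% of all tested genes.

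Genes for elongation, 3′ processing and the U1 particle, which act in crossing long genes, were taken as a list from general knowledge. Of 52 listed 44 were in the table and 42 were tested, and 32 fell and 7 rose in NP-D@M against NP@M, with a median of -1.51. Over all tested genes 46% were lower and 45.2% higher, with a median of 0.16. With read totals 40 fell and 0 rose, beside 61.7% and 9.12% of all tested genes. Whether these genes bear on the long-span genes was not tested. The topoisomerase Top1 (-1.25) went from 2.56 to 3.48 FPKM under NP@M to 0.55 to 0.962 under NP-D@M, and Supt6, a histone chaperone that travels with the polymerase (-1.97), from 10.2 to 11.4 to 1.40 to 2.65. Supt4a, a small subunit of the DSIF elongation complex, rose by 1.49. These were named after their values were seen.

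Some members are long for reasons other than their main transcript. The principal protein-coding transcript spanned under 250 kb in 34 of the 233 genes, 19 of them tested, among them Arhgef3, Tiam1, Celf2, Iqsec1, Pigk and Slc7a11. The principal transcripts of the last 3 spanned 60.4, 74.9 and 78.7 kb. At least 1 other annotated gene lay inside 205 of the 233. Exons of 26 (15 tested) overlapped those of another gene of the table, among them Wdr7, Mgat5, Rptor, Lpp, Atxn1 and Fars2, so their reads are uncertain where counting could split them. Coordinates are those of the table, which names no build, and equal GENCODE M21 on GRCm38 for 221 of the 233. The set lay on 20 chromosomes, its median span was 343 kb, and its median longest intron was 106 kb, against 3.17 kb in the comparators.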

How the data were processed

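The authors deposited 1 table of FPKM values for 12 libraries, with a header that states no unit (inferred here). Values times gene length were whole multiples of 1 step per library (100% within 0.05), which gave reads. Counting and gene selection are not given in the sources used here. Bowtie 0.12.2 and mm8 stand in the submitters' processing notes, with no role. Genes with at least 1 FPKM in at least 3 libraries (8615) were fitted with limma 3.58.1 (R 4.3.3) on log2(FPKM + 1), 4 group means, trend and robust empirical Bayes, 2-sided, adjusted over all tested genes. The pseudocount understates fold changes of low genes. In simulated data of NP-D@M against NP@M (7681 genes), 79% of 2-fold and 98% of 4-fold changes were recovered, with 10 false calls. There, few genes changed, all of them downward, and every gene had the same spread. Genes had a mean of at least 1 FPKM without D, and no library stood apart. The real libraries differ in these points, so the rates do not carry over to them. Comparators spanned the 10th to 90th percentile of the tested members' gene length. Members and lists were chosen with earlier results of these data known. Named members are up to 10 per direction with the largest fold change in NP-D@M against NP@M (5 in the other comparisons; groups not overlapping, higher mean at least 1 FPKM), the 10 longest, the 10 highest, 4 per role list by adjusted p, and those at the threshold. Some named genes and 1 role list are not reported here. Alternatives are given at the end. Python 3.11.15, pandas 2.3.3, numpy 2.4.6 and matplotlib 3.10.9 were used.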

Additional observations from a re-analysis of the deposited data

How the results depend on the processing

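Counts of long-span genes called in NP-D@M against NP@M (106: 71 lower, 35 higher) and NP-D@MP against PBS (104: 74 lower, 30 higher) changed by over 1.5 times under these alternatives. With a filter of 5 FPKM they were 25 (11, 14) and 25 (12, 13), fewer genes being tested, and with a span of at least 500 kb 21 (13, 8) and 20 (14, 6). With no filter 117 and 128 were lower, and 167 were called in the second. Quantile normalization left 39 and 35 lower. Read totals left 6 and 5 higher, and voom on recovered reads, added after seeing the data for the differences below, 5 and 5.

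The difference between long-span and short-span medians, -0.19 and -0.30 in these comparisons, was -0.0255 and -0.0410 when PBS replicate 3 and NP@M replicate 2 were dropped, 0.0757 and 0.0328 with no filter on either set, 0.0743 and 0.0210 with quantile normalization, -0.25 and -0.54 with a pseudocount of 0.1, and -0.29 and -0.58 with voom. It was -0.0175 and -0.12 with comparators under 10 kb, -0.0756 and -0.17 with transcription factors kept, and -0.26 and -0.78 at means of 2 to 20 FPKM. In the second alone it moved to -0.40 with equal medians, -0.67 with the 5 FPKM filter, -0.19 with read totals and -0.14 with comparators between length quartiles. Leaving out 1 library gave -0.35 to -0.0123 and -0.46 to -0.0198. In NP-D@MP against NP-D@M (-0.08) it was -0.15 with the 5 FPKM filter, -0.16 with the pseudocount and -0.18 with voom. The sign turned with no filter and with quantile normalization in both.

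Over the span classes, the median of genes of at least 250 kb minus that under 20 kb, at any length (-1.63), was -1.38 with both libraries dropped, -1.71 with equal medians, -0.87 with the 5 FPKM filter, -0.71 with no filter, -2.30 with the pseudocount, -0.44 with quantile normalization, -1.09 with read totals and -2.43 with voom. Leaving out 1 library gave -1.82 to -1.36.

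Of 65 named genes, all kept direction and call with no filter, the pseudocount, only the 6 libraries compared, and limma without trend. Quantile normalization reversed Celf2 (0.14), Snd1 (-0.73), Mad1l1 (0.17), Vti1a (0.21) and Ext1 (0.29). Read totals and voom reversed Wwox (-0.33, -0.73), Ptprm (-0.0451, -0.12), Smyd3 (-0.52, -1.13), Trappc9 (-0.81, -0.95), Snd1 (-1.76, -1.87), Plxdc2 (-0.22, -0.23), Vwa8 (-0.28, -0.34) and Msra (-0.99, -1.08). Apart from what fewer tested genes show, the cause was not tested. No paired analysis was possible because the labels carry no replicate numbers.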
